A study of Mus musculus with 4 samples.

Results

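Myocardin (Myocd) and 9 genes of the smooth muscle contractile machinery (Mylk, Cnn1, Tagln, Myh11, Smtn, Lmod1, Cald1, Synpo2 and Kcnmb1) were followed in mouse hearts with and without the microRNA miR-1. They were taken by gene name from the 2 deposited expression tables, each of 22552 gene rows, and all 10 were present in both. Of the 10, 9 passed the filter on low values (a mean of at least 1 FPKM over the libraries of a stage) at postnatal day 2.5 (P2.5), Lmod1 being the exception, and 10 passed at embryonic day 15.5 (E15.5). FPKM is the number of sequenced fragments per kilobase of transcript, scaled to 1000000 fragments of the library, so that levels of different genes can be compared per length.

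The samples were 4 whole-heart RNA libraries from mice of the strain labelled Sv129, with 1 library in each group. At each stage, hearts of double knockouts for miR-1-1 and miR-1-2 (dKO) were set beside hearts of controls labelled dHET, which the design text calls littermates for P2.5. The P2.5 control column is headed as heterozygous, so those controls carry altered miR-1 genes. The E15.5 table heads its control column WT instead, so the control genotype of that stage is uncertain. No treatment is given in the labels, and the number of hearts in each library is not given there.

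Myocardin is a coactivator that binds serum response factor (SRF) and turns on genes of smooth muscle and heart muscle through DNA elements called CArG boxes. In the embryonic heart, genes named for smooth muscle are also active for a time in heart muscle cells, and in smooth muscle cells of coronary and large vessels they remain active. The microRNA miR-1, abundant in heart muscle, lowers messenger RNAs that carry a match to its seed (bases 2 to 8) in the 3' UTR, and Myocd is among its described targets.

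Seed matches were found in the 3' UTRs of Myocd, Mylk, Tagln and Kcnmb1 and in none of the other 6 genes, and are shown because they are the sequences through which miR-1 could act on these genes. Lower-case letters are flanking 3' UTR, and capitals mark the match. In each line the sequence is read 5′ to 3′ on the transcript's strand of mouse build NCBIM37 (mm9).
Myocd, match to bases 2 to 8, chr11:64990991-64991016, minus strand: gaacgatgtcatttaACATTCCgaga
Myocd, match to bases 2 to 7 followed by A, chr11:64990084-64990109, minus strand: caaagatttagaaatCATTCCAttgt
Mylk, 8-base match, chr16:35001974-35001999, plus strand: tgtgtgtgtgtctaACATTCCAaata
Tagln, match to bases 2 to 7 followed by A, chr9:45737983-45738008, minus strand: tgtcactcctgttagCATTCCAggaa
Kcnmb1, 8-base match, chr11:33873164-33873189, plus strand: aaatatgttgtcagACATTCCAgatc

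The words searched, on the transcript's strand only and in the longest annotated 3' UTR, were ACATTCC and CATTCCA, which overlap in the 8-base word ACATTCCA. Of 19915 mouse genes with an annotated 3' UTR, 9.13% held ACATTCC, 10.8% held CATTCCA, 15.6% held either and 3.46% held the 8-base word. The 8-base word stood in Mylk and Kcnmb1. Long 3' UTRs have more room for such words, and that of Kcnmb1 (3277 bases) was the longest of the 10, while those of Synpo2 (3200 bases) and Cald1 (3015 bases) held none. A match is a description of the sequence, not evidence that the site is used.

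**Figure D1:**
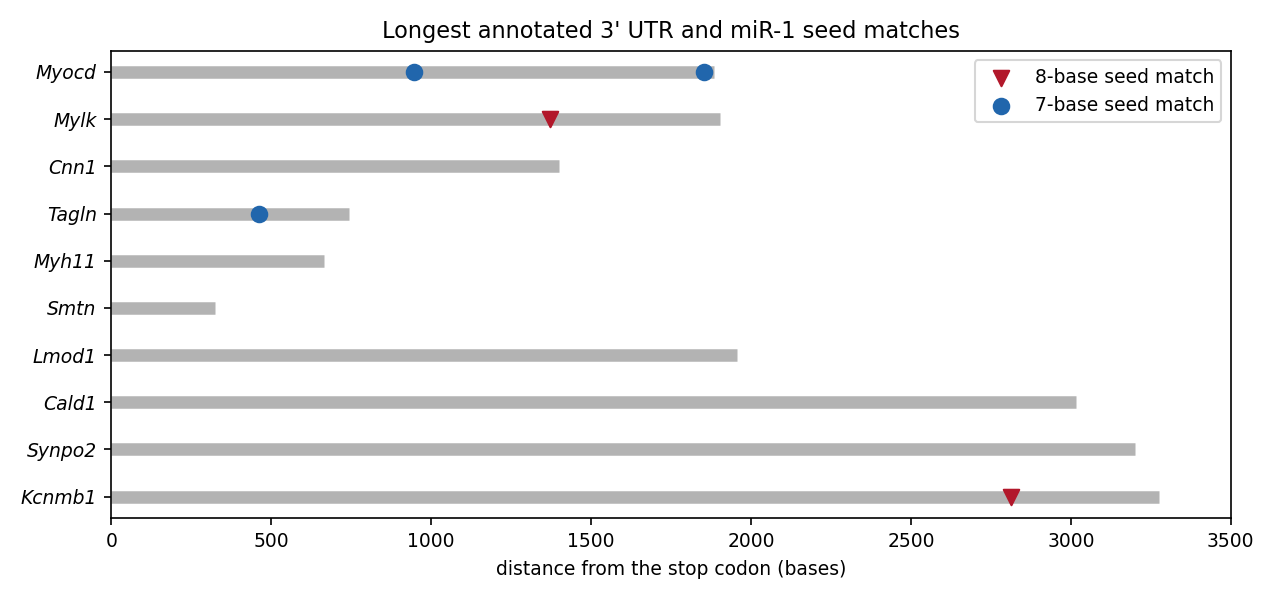
Grey bars show, to scale, the longest annotated 3' UTR of each of the 10 genes, in bases from the stop codon (x axis), with 7-base matches to the miR-1 seed as circles and 8-base matches as triangles. Myocd carries 2 matches, at 946 and 1853 bases, and Mylk, Tagln and Kcnmb1 carry 1 each.

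As a whole, the libraries had scaling totals between 44600000 and 49900000 fragments at P2.5 and between 86500000 and 104000000 at E15.5, recovered from the steps of low FPKM values, of which 78.6% to 82.2% came out whole within 0.1 of a fragment. Ratios of dKO to dHET are given with a 95% interval that covers counting error in those fragments and nothing else, and ratios between genes of 1 library carry none. With 1 library in a group there is no replicate error, no test, and genotype and individual hearts cannot be told apart. Sex and genotype cannot be told apart at P2.5, where Xist read 0.101 FPKM (dHET) and 50.7 FPKM (dKO). The Y-linked Ddx3y read 11.7 FPKM and was listed at 0 in that dKO library. At E15.5 Ddx3y read 15.3 and 14.8 FPKM. A gene was called higher or lower in dKO at a fold of at least 1.5 in log2((FPKM dKO + 1)/(FPKM dHET + 1)), a scale that understates the change of low genes. At P2.5, 3.33% of the 11544 genes that passed the filter were called higher, 1.26% lower and 4.59% either way. The E15.5 shares were 0.475%, 0.656% and 1.13% of 11586 genes. The P2.5 split depends on scaling: 72.5% of calls were on the higher side with FPKM as deposited and 54.1% after centring on the median change. It was 32.4% after rescaling each library to a sum of 1000000, which moved the median change of all genes from 0.066 to -0.093. Rescaling also raised the values against the pseudocount of 1 and the filter, so 13007 genes passed at P2.5. A heart muscle transcript was abundant in all libraries: the cardiac actin gene Actc1 lay between 4264 and 7921 FPKM.

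At P2.5 the dKO library had more Cnn1, Kcnmb1 and Myocd transcript than the dHET library, and at E15.5 it had more Kcnmb1 and less Myh11 and Lmod1. Of the 9 genes that passed at P2.5, 3 were called higher and 0 lower, against 3.33% and 1.26% of all genes (4.59% either way). At E15.5, 1 of 10 was called higher and 2 lower, against 0.475% and 0.656% (1.13% either way). Myh11 and Lmod1 passed the E15.5 filter only through the dHET library, and Kcnmb1 the P2.5 filter only through the dKO library. The members were chosen with earlier results of these data known, so these counts are no independent evidence. In the authors' deposited table, whose tests compare single libraries, 2 of the 10 are significant and higher in the P2.5 dKO library (Cnn1 and Kcnmb1) and 0 lower, where 0.273% and 0.133% of all tested genes are. At E15.5 that table has 1 higher (Kcnmb1) and 2 lower (Myh11 and Lmod1), where 0.291% and 0.645% of tested genes are. Kcnmb1 was the member called higher at both stages. The median change of the members that passed came to 0.40 (P2.5) and -0.11 (E15.5), beside 0.066 and -0.0078 over all genes. Changes were above 0 in 7 and below 0 in 2 members at P2.5, and above 0 in 4 and below 0 in 6 at E15.5.

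**Figure D2:**
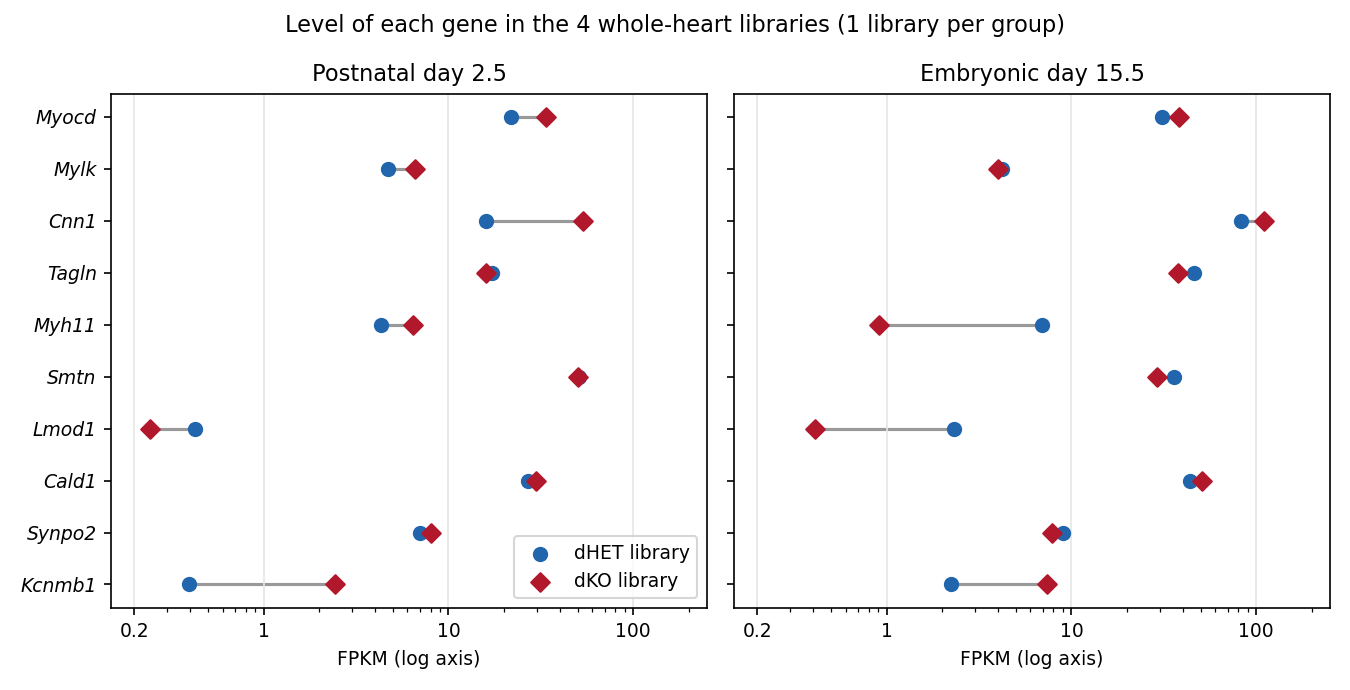
FPKM on a log axis (x) for each of the 10 genes (y) in the dHET library (circles) and the dKO library (diamonds) at each stage, with 1 library per point and no error bars. The widest gaps are those of Kcnmb1 and Cnn1 at P2.5, to the right, and of Myh11 and Lmod1 at E15.5, to the left.

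Myocd, the regulator (ENSMUSG00000020542.11, chromosome 11, 64990063 to 65083491, minus strand) had 21.7 FPKM in the P2.5 dHET library and 33.9 in the dKO library. At E15.5 the values were 30.8 and 38.1 FPKM. Myocd was thus the higher of the pair in dKO at both stages. The ratio of dKO to dHET was 1.56 (counting interval 1.51 to 1.62) at P2.5 and 1.23 (1.21 to 1.26) at E15.5, with log2 changes of 0.62 and 0.30. The P2.5 value sits just past the 1.5-fold line (0.585 on the log2 scale) and fell short of it after centring (0.55), after rescaling to a sum of 1000000 (0.46) and with a pseudocount of 5 (0.54). The authors' deposited table gives Myocd at P2.5 a p-value of 0.0245 and a q-value of 0.818, and does not call it significant.

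SRF, the DNA-binding partner of myocardin, and the related coactivators Mkl1 and Mkl2 were below the 1.5-fold line. Srf had 44.3 FPKM in dHET against 39.3 in dKO at P2.5, then 39.3 and 40.6 at E15.5. Mkl1 had 5.83 and 6.22 FPKM at P2.5, then 6.57 and 6.32 at E15.5. Among the 27 listed genes of SRF, the myocardin family and their modulators, 26 passed the filter at each stage. Of these, 1 was called higher (Myocd) and 1 lower at P2.5 (backgrounds 3.33% and 1.26%), and 0 either way at E15.5 (background 1.13%). The lower one was Mef2a, a transcription factor of muscle genes, at 72.8 and 46.6 FPKM. The list's median change came to -0.087 (P2.5) and -0.033 (E15.5).

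The myosin motor gene of smooth muscle was called lower in dKO at E15.5 and was not called at P2.5. Myh11 (ENSMUSG00000018830.7, chromosome 16, 14194620 to 14291501), the smooth muscle myosin heavy chain, had 4.30 FPKM in dHET against 6.41 in dKO at P2.5. At E15.5 it had 6.95 FPKM in dHET and 0.915 in dKO. The dKO value was the higher of its pair at P2.5, short of the 1.5-fold line, and the lower at E15.5, where the gene passed the filter only through its dHET library. The ratio was 1.49 (1.39 to 1.60) at P2.5 and 0.132 (0.121 to 0.143) at E15.5, where about 3983 and 631 fragments lay behind the values. The log2 changes were 0.48 and -2.05. The authors' deposited table gives a q-value of 6.15e-27 at E15.5, for the comparison of these 2 libraries, and 1.00 at P2.5.

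Mylk (chromosome 16, 34745296 to 35002520) encodes the kinase that phosphorylates the regulatory light chain and so starts contraction, and a separate start inside the gene makes telokin, a small smooth muscle protein. The tables give 1 value per gene, so kinase and telokin transcripts are not separated. Mylk had 4.71 FPKM in dHET against 6.56 in dKO at P2.5, then 4.22 and 3.99 at E15.5. The log2 changes were 0.40 and -0.065, neither past the line, with ratios of 1.39 (1.31 to 1.48) and 0.945 (0.899 to 0.995). The paralog Mylk3, the kinase of heart muscle, was about an order of magnitude more abundant, with 87.7 and 92.7 FPKM at P2.5, then 56.0 and 58.4 at E15.5.

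In the wider list of light chain phosphorylation genes, 21 of 24 measured genes passed at P2.5 and 22 at E15.5. At P2.5, 2 were called higher and 1 lower, against 3.33% and 1.26%. The higher ones were the smooth muscle regulatory light chain Myl9 (464 to 792 FPKM) and Ppp1r14a, an inhibitor of myosin phosphatase (7.56 to 12.9 FPKM). The lower one was the nonmuscle regulatory light chain Myl12b (55.7 to 30.3 FPKM), which has a near-identical paralog with which it can share reads. After rescaling to a sum of 1000000 the P2.5 calls of this list were 1 higher and 2 lower of 23. Of all 13007 genes that then passed, 336 were called higher and 700 lower. The list's median went from 0.078 to -0.10. At E15.5, 0 were called, against 1.13% of all genes either way, and Myl9 had 721 FPKM in dHET and 967 in dKO. The authors' deposited table does not call Myl9 significant at either stage.

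Of the 6 genes for proteins that bind the thin filament, Cnn1 was the 1 called higher at either stage. Cnn1 (ENSMUSG00000001349.4, chromosome 9, 21903725 to 21914074), which binds actin and damps the myosin ATPase, had 15.9 FPKM in dHET against 53.5 in dKO at P2.5. At E15.5 it had 82.7 and 110 FPKM. The dKO library was the higher of each pair, and at P2.5 Cnn1 moved from the fifth highest of the 10 genes in dHET to the highest in dKO. At E15.5 it was the highest in both libraries. The ratio was 3.36 (3.18 to 3.55) at P2.5 and 1.33 (1.30 to 1.35) at E15.5, with log2 changes of 1.69 and 0.41. In the authors' deposited table its q-value is 5.09e-07 (P2.5) and 0.475 (E15.5). Over all the settings tried, the P2.5 change ranged from 1.48 to 1.74.

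Cnn1 has no miR-1 seed match in its 1399-base 3' UTR. Its paralogs had smaller differences: Cnn2 had 49.0 and 65.3 FPKM at P2.5 and Cnn3 had 56.3 and 49.1, neither past the line.

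Tagln (chromosome 9, 45737711 to 45744141), which encodes the actin-bundling protein SM22 and is a standard marker of smooth muscle, did not follow Cnn1. It had 17.1 FPKM in dHET against 16.0 in dKO at P2.5, then 46.3 and 37.6 at E15.5. The dKO library was the lower of the pair each time, by less than 1.5-fold, with log2 changes of -0.090 and -0.29. Because both genes are read in the same library, their ratio does not depend on scaling. Cnn1 stood at 0.929 of Tagln in the P2.5 dHET library and at 3.34 times Tagln in the dKO library, and at 1.78 and 2.92 times at E15.5. Tagln shares 65 bases, 4.10% of its exonic length, with exons of Pcsk7 on the opposite strand, and whether the libraries kept strand is not given in the sources used here.

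Smtn (chromosome 11, 3417526 to 3440615), which encodes the actin-binding protein smoothelin, had nearly equal values at P2.5, with 50.7 FPKM in dHET and 50.1 in dKO. At E15.5 it had 36.0 and 29.0 FPKM, a log2 change of -0.30. Smtn shares 753 bases, 17.2% of its exonic length, with the predicted genes Gm11946 and Gm11947 on the opposite strand. Cald1 (chromosome 6, 34548500 to 34725473) encodes caldesmon, which blocks myosin binding to actin, and had 27.1 and 29.8 FPKM at P2.5, then 43.7 and 50.8 at E15.5. Its changes of 0.13 and 0.21 were both positive as deposited, and the P2.5 value turned to -0.035 when the libraries were rescaled to a sum of 1000000. Synpo2 (chromosome 3, 122779437 to 122939067), which encodes an actin-bundling protein of the Z-disc and of smooth muscle dense bodies, had 7.06 and 8.06 FPKM at P2.5, then 8.96 and 7.89 at E15.5. Rescaling to a sum of 1000000 brought its P2.5 change from 0.17 to 0.019. Its paralog Synpo2l, a Z-disc protein of heart muscle, was called lower at P2.5 (88.4 to 55.7 FPKM). It had 97.3 and 91.4 FPKM at E15.5.

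Lmod1 (ENSMUSG00000048096.6, chromosome 1, 137221384 to 137264642), the smooth muscle leiomodin that nucleates actin filaments, was the other member with less transcript in the E15.5 dKO library. Its E15.5 values were 2.33 FPKM (dHET) and 0.410 FPKM (dKO), or about 795 and 168 fragments. Its level was low at P2.5, with 0.427 and 0.244 FPKM. Lmod1 was thus the lowest of the 10 genes in both dKO libraries and passed the E15.5 filter only through its dHET value. The E15.5 ratio was 0.176 (0.148 to 0.208) and the P2.5 ratio 0.572 (0.389 to 0.832). The authors' deposited table gives q-values of 3.36e-10 and 1.00. The heart and skeletal muscle leiomodin Lmod2 had 40.6 and 32.1 FPKM at E15.5, which is not past the line.

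The membrane protein of the set was the one with the same call at both stages. Kcnmb1 (ENSMUSG00000020155.2, chromosome 11, 33863013 to 33873641, plus strand) encodes the beta subunit that makes the large-conductance calcium-activated potassium (BK) channel of smooth muscle more sensitive to calcium. It had 0.396 FPKM in dHET against 2.44 in dKO at P2.5, from about 74 and 510 fragments. At E15.5 it had 2.24 and 7.42 FPKM, from about 813 and 3232 fragments. The dKO library was the higher of each pair, although the P2.5 dHET value lies below 1 FPKM and the gene passed that filter only through the dKO library. Its ratios were 6.16 (4.82 to 7.97) for P2.5 and 3.31 (3.06 to 3.58) for E15.5. On the scale with a pseudocount of 1 the changes were 1.30 and 1.38, and a pseudocount of 5 brought the P2.5 change to 0.46, below the line. The authors' deposited table calls both significant, with q-values of 5.96e-05 and 2.53e-11.

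The pore subunit that Kcnmb1 serves was near 0 in these hearts. Kcnma1 had 0.0311 and 0.0119 FPKM at P2.5, then 0.103 and 0.0933 at E15.5. The related beta subunit Kcnmb4 had 1.09 and 1.14 FPKM at P2.5, then 2.94 and 2.86 at E15.5. Of the 22 listed genes of BK channels and smooth muscle calcium entry, 14 passed at P2.5 and 15 at E15.5, and Kcnmb1 was the 1 gene called at each stage, on the higher side, against 3.33% and 0.475% of all genes. The medians of this list were 0.0058 and 0.036. Kcnmb1 lies inside an intron of Kcnip1, a gene on the opposite strand, with which it shares no exonic base in the annotation. Kcnip1 itself had 0.0499 and 0.321 FPKM at P2.5, then 0.0721 and 0.210 at E15.5, higher in dKO each time and below the filter, and its part in the Kcnmb1 values was not tested.

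**Figure D3:**
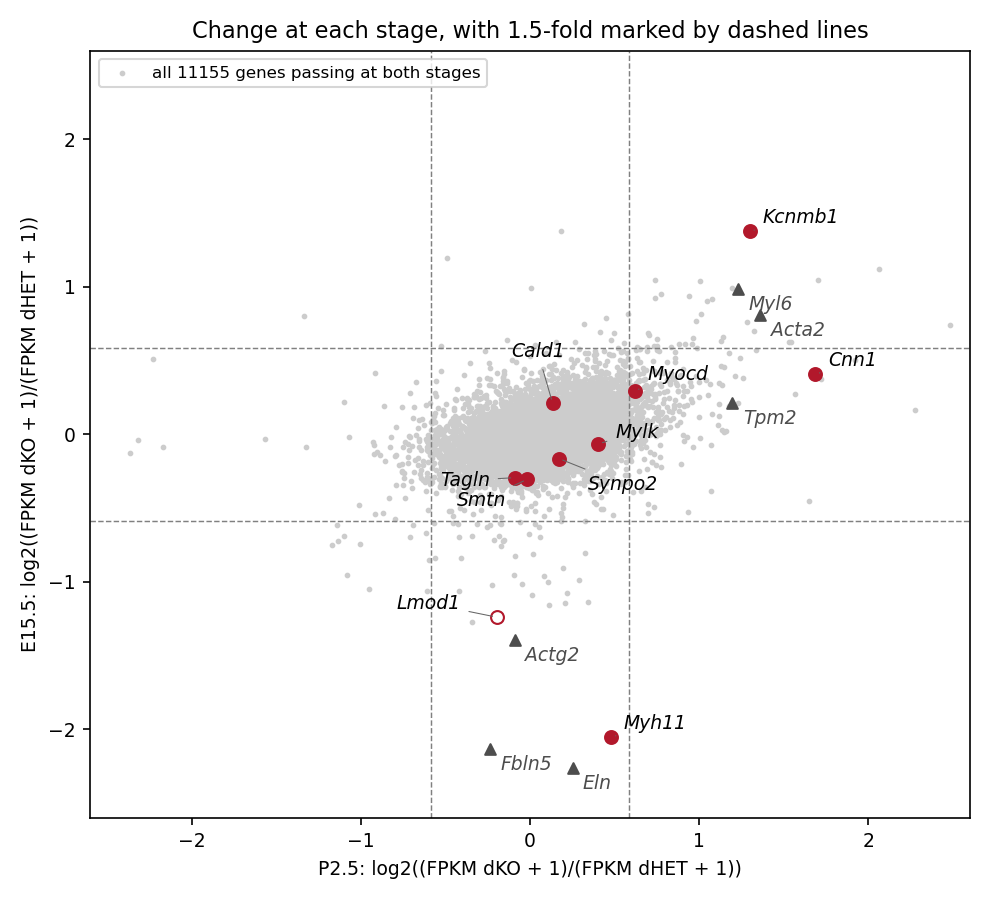
Log2 change of dKO over dHET at P2.5 (x axis) and E15.5 (y axis) for 11155 genes that passed at both stages (grey points, of which 4 lie outside the axes), with the 10 genes as red circles (open for Lmod1, below the filter at P2.5), 6 other genes as triangles and 1.5-fold as dashed lines. Kcnmb1 lies at 1.30 and 1.38, Cnn1 at 1.69 and 0.41, and Myh11 at 0.48 and -2.05, near Eln at 0.25 and -2.26.

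The 4 genes with a seed match and the 6 without were set side by side, with no test. With a match, the median change was 0.51 at P2.5 (range -0.090 to 1.30) and 0.12 at E15.5 (-0.29 to 1.38). Without a match it was 0.15 at P2.5 (-0.20 to 1.69) and -0.23 at E15.5 (-2.05 to 0.41). The P2.5 values without a match include Lmod1 (-0.20), which was below the filter at that stage. Those with a match include Kcnmb1 (1.30), which passed at P2.5 only through the dKO library. The E15.5 values without a match include Myh11 (-2.05) and Lmod1 (-1.24), which passed only through the dHET library. The ranges overlapped at both stages. Kcnmb1 and Mylk both carry the 8-base word, with P2.5 changes of 1.30 and 0.40 and E15.5 changes of 1.38 and -0.065.

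A CArG box was looked for in promoter windows from 250 bases before to 50 bases after the start, taken from RefSeq on build GRCm38.p6. Windows were found for 7 of the 10 genes, not for Myocd, Tagln and Myh11. The full CArG box, which reads alike on both strands, was in 0 of the 8 windows of these 7 genes and in 1.63% of all 32851 windows. A form with 1 letter changed, on either strand, was in 2 of the 8, those of Lmod1 and Cald1, and in 19.9% of all. The absence of a match says only that these letters are not in this window.

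Other genes of the smooth muscle contractile apparatus were then read from a list of 34 that holds none of the 10, of which 32 passed at each stage. At P2.5, 7 were called higher and 0 lower, against 3.33% and 1.26% of all genes, with a median change of 0.20. The largest were smooth muscle actin Acta2 (658 FPKM in dHET, 1692 in dKO), the essential light chain Myl6 (53.5 and 127), beta-tropomyosin Tpm2 (37.8 and 87.8) and Csrp2, a LIM protein of smooth muscle (84.2 and 169). At E15.5, 3 were called higher and 1 lower, against 0.475% and 0.656%, with a median of 0.080. Higher were Myl6 (38.8 and 77.7 FPKM), Acta2 (692 and 1215) and the calcium store protein Casq2 (210 and 318), which heart muscle also makes. The 1 lower gene was Actg2, the enteric smooth muscle actin, at 4.47 and 1.08 FPKM. In the authors' deposited table, whose tests compare single libraries, Myl6 is significant at both stages, Tpm2 at P2.5 and Actg2 at E15.5. Acta2 and Csrp2 are not significant there at either stage. Actin genes share much of their coding sequence, so Acta2 and Actg2 can exchange reads with each other and with the cardiac actin gene. After rescaling to a sum of 1000000 the higher and lower calls were 6 and 0 of 33 at P2.5, then 3 and 3 of 34 at E15.5. Over all genes they were then 336 and 700 of 13007 at P2.5, and 142 and 194 of 13379 at E15.5.

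Part of a list of vessel wall genes was lower in the E15.5 dKO library, as were Myh11 and Lmod1. Of 17 listed genes of the vascular wall matrix, 0 were called higher and 7 lower, against 0.475% and 0.656% of all genes, and 5 lay above 0; this list was drawn up knowing that Eln, Fbln5, Lox and Mfap5 were lower and is no independent evidence. Elastin, Eln, had 710 FPKM in dHET and 147 in dKO, fibulin 5, Fbln5, 52.1 and 11.1, the crosslinking enzyme Lox 24.9 and 9.75, and fibulin 2, Fbln2, 52.2 and 24.1. The summed level of the list was 1391 FPKM in dHET and 686 in dKO at E15.5, and 543 and 550 at P2.5. At P2.5, 1 gene was called higher and 2 lower, against 3.33% and 1.26% of all genes.

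Of 14 pericyte and mural cell markers, 13 passed at E15.5, with 0 called higher and 3 lower, against 0.475% and 0.656% of all genes: Rgs5 (25.1 to 14.5 FPKM), Rgs4 (3.26 to 1.41) and Heyl (9.33 to 5.27). None was at 0 in both libraries, and the defining marker Pdgfrb had 18.6 and 16.8 FPKM. The summed level of that list was 490 and 485 FPKM at E15.5. At P2.5, 0 of 14 were called, against 4.59% of all genes either way. In whole-heart RNA, fewer cells of a type and less RNA per cell cannot be told apart, and how much vessel each dissected heart kept is not known here. The part of the vessel wall genes in the Myh11 and Lmod1 values was not tested.

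The 6 smooth muscle markers fixed for a check of the label (Acta2, Myh11, Cnn1, Tagln, Smtn and Myocd) were all detected in every library. All but Acta2 are among the 10 genes. At P2.5, 3 were called higher and 0 lower, against 3.33% and 1.26% of all genes. After centring or rescaling, 2 were called higher, without Myocd, and 0 lower. Over all genes, the higher and lower calls were 264 and 224 of 11544 after centring, and 336 and 700 of 13007 after rescaling. At E15.5, 1 was called higher (Acta2) and 1 lower (Myh11), against 0.475% and 0.656%. Of 14 heart muscle markers, 4 were called higher and 1 lower (Pln) at P2.5, against 3.33% and 1.26% of all genes, with 9 above 0, 5 below and a median of 0.24, the largest being Nppa (182 to 1021 FPKM) and Myl7 (41.7 to 161), both atrial genes, and their summed level was 26194 FPKM in dHET and 34623 in dKO. At E15.5, 1 of 14 was called higher (Nppa) and 0 lower, against 0.475% and 0.656%, and the sums were 15844 and 15895. The part of these cells in the P2.5 values of the 10 genes was not tested.

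**Figure D4:**
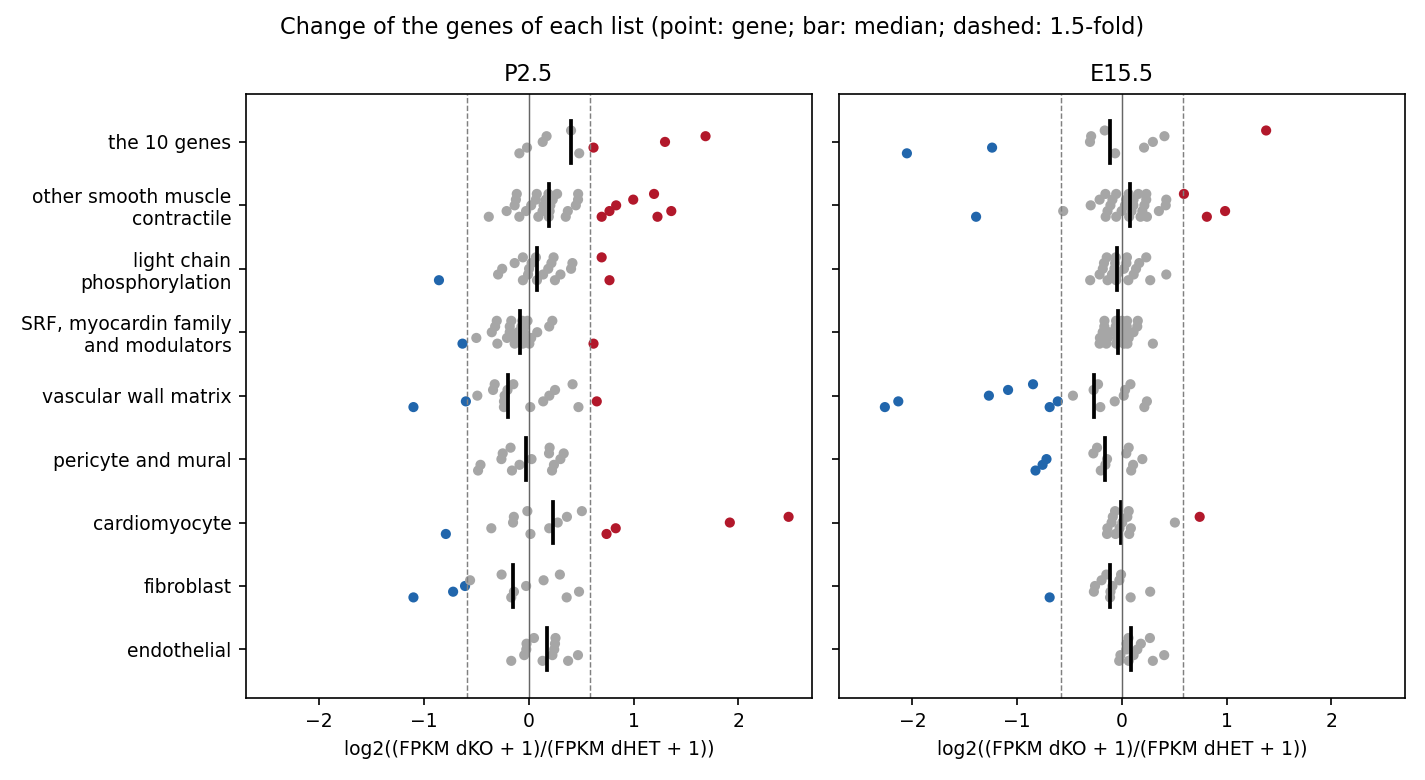
Log2 change of dKO over dHET (x axis) for each gene that passed the filter (points) in 9 lists (y axis) at each stage, with the list median as a bar, 1.5-fold as dashed lines, and genes called higher in red and lower in blue. At E15.5 the list with the most blue points is the vascular wall matrix (7 of 17), drawn up knowing that Eln, Fbln5, Lox and Mfap5 were lower. Myh11 and Lmod1 are the 2 blue points among the 10 genes.

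Of 21 listed paralogs of the 10 genes, 15 passed at P2.5 and 14 at E15.5; 0 were called higher and 1 lower (Synpo2l) at P2.5, against 3.33% and 1.26%, and 0 either way at E15.5, against 1.13%. After rescaling to a sum of 1000000 the P2.5 calls were 0 higher and 3 lower of 17. Of all 13007 genes that then passed, 336 were called higher and 700 lower. The nonmuscle myosins Myh9 and Myh10, related to Myh11, had 41.1 and 39.1 FPKM and 98.2 and 85.1 FPKM at E15.5, where Myh11 was at 6.95 and 0.915. The ratio of Myh11 to Myocd within a library, which scaling cannot change, was 0.198 and 0.189 in dHET and dKO at P2.5, then 0.225 and 0.0240 at E15.5.

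Nearness to 3 members was measured as the distance between pairs of log2 changes (P2.5 and E15.5), over 11155 genes that passed at both stages. It rests on 2 values per gene. Nearest to Cnn1 were Atp6v0e2 (distance 0.046), Slc16a3 (0.18) and the atrial light chain gene Myl7 (0.25). Nearest to Myh11 were Eln (0.31), Fbln5 (0.72) and Actg2 (0.87). Those nearest to Myocd were Ndufa2 (0.013), Rfxank (0.015) and Slc24a3 (0.020), in a part of the plane that holds many genes.

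Levels at the 2 stages come from tables scaled and read separately, so they are given side by side without a comparison. The sum over the 10 genes was 149 FPKM in dHET against 207 in dKO at P2.5, then 264 and 286 at E15.5. Smtn was the highest of the 10 in the P2.5 dHET library and Cnn1 in the other 3 libraries. The lowest was Kcnmb1 in both dHET libraries and Lmod1 in both dKO libraries.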

How the data were processed

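Poly-A selected RNA of whole mouse hearts was sequenced with reads of 100 bases, from a single end at P2.5 and from both ends at E15.5, per the labels. The submitters' processing notes name TopHat, Bowtie, Cufflinks and build mm9 without versions or settings. The authors deposited FPKM values, with their own fold change, p-value and q-value, in 1 table per stage. Rows displaced by commas (86 per stage) were realigned on the position column. Rows flagged OK or NOTEST were used, so Myh6 (P2.5) and Myh7 (E15.5) were left out. The E15.5 fold change was turned to dKO over dHET. Changes were log2 of FPKM with a pseudocount of 1, for genes with a mean FPKM of at least 1. Fragments were estimated as FPKM times the longest coding transcript's length (GENCODE M1, NCBIM37) times the scaling total, with exact binomial intervals of the ratio. All calculations used Python 3.11.15, numpy 2.4.6, pandas 2.3.3 and scipy 1.17.1. The fold calls and the recovery of the scaling totals were tested on simulated data. The intervals, sequence searches, distances and GC adjustment were not. The seed words were read from RefSeq's miR-206-3p, which has the seed of miR-1, and the 5 printed sites were checked against the genome. Named genes were the 10 members, up to 4 genes with the largest change per list and stage among those called, 3 nearest genes for Myocd, Cnn1 and Myh11, and Xist, Ddx3y and Eif2s3y. Genes named as partners or paralogs of a member or as examples of a marker list lie outside that rule and were chosen after their values were seen. The members, gene lists and rule were chosen with earlier results of these data known. Of the alternatives tried, 8 changed the pseudocount, the filter, the scaling or the status flags, and 1, an adjustment for GC content and length, was chosen after seeing the data.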

Additional observations from a re-analysis of the deposited data

Results flagged for a closer look

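Among the genes named, 9 were on opposite sides of 0 in the 2 pairs of libraries, with counting intervals that leave out a ratio of 1 at both stages. The difference between the P2.5 and the E15.5 log2 change was 2.53 for Myh11 (0.48 and -2.05), 0.47 for Mylk (0.40 and -0.065) and 0.33 for Synpo2 (0.17 and -0.16) among the 10 genes. Outside them it was 2.51 for Eln (0.25 and -2.26), 0.75 for Itga8 (0.19 and -0.56), 0.59 for Myh9 (0.52 and -0.070), 0.48 for Myh10 (0.28 and -0.20), 0.46 for Actc1 (0.36 and -0.099) and -0.21 for Srf (-0.17 and 0.045). The signs stayed opposite for 9 of 9 genes after centring and after rescaling each library to a sum of 1000000. Rescaling left small P2.5 changes for Synpo2 (0.019), Itga8 (0.050) and Eln (0.080), and brought that of Mylk to 0.29. These differences were not tested, since each stage has 1 library per genotype. The stages also differ in read layout and in the sex of the animals compared (Ddx3y at 11.7 and 0 FPKM in dHET and dKO at P2.5, and at 15.3 and 14.8 at E15.5).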

How the results depend on the processing

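Every member called as reported at P2.5 or E15.5 that was still called under an alternative kept its direction. At P2.5 the 3 called members became 1 (Cnn1) with a pseudocount of 5, and 2 after centring or rescaling to a sum of 1000000 (without Myocd) and with either stricter filter (without Kcnmb1). At E15.5, 0 of 5 were called with a mean FPKM of at least 10, since Myh11, Lmod1 and Kcnmb1 lie below that filter, and 2 of 3 with a pseudocount of 5, where Lmod1 was at -0.44, and when either library had to reach 5 FPKM. The members' median at P2.5, 0.40, moved to 0.25 with a pseudocount of 5, to 0.29 with no filter (where all 10 count) and when either library had to reach 5 FPKM, to 0.13 with a mean FPKM of at least 10, and to 0.15 after rescaling. The E15.5 median, -0.11, moved to 0.023 when either library had to reach 5 FPKM and to 0.21 with a mean FPKM of at least 10, where fewer members count. Adjustment for GC content and length, with which the change correlated across genes (r of 0.35 at P2.5 over 11258 genes and 0.16 at E15.5 over 11296), left the same 3 members called at each stage. Over all genes, the higher and lower calls at P2.5 were 384 and 146. They became 605 and 275 with a pseudocount of 0.1, 141 and 42 with one of 5, 264 and 224 after centring, and 336 and 700 after rescaling. After rescaling, 13007 genes passed the filter instead of 11544. No paired analysis was possible because each group has 1 library, and for the same reason no library could be left out. The smallest depth was that of Lmod1 at P2.5, about 75 and 48 fragments, and of Kcnmb1 in the P2.5 dHET library, about 74.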

Other observations

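Marker lists of other cell types in whole heart gave the following values, beside 3.33% of all genes called higher and 1.26% lower at P2.5 (E15.5: 0.475% and 0.656%). Of 12 fibroblast markers, 3 were called lower at P2.5 (Mfap5, Lum and Dcn, at -1.10, -0.72 and -0.61) and 1 at E15.5 (Mfap5, -0.69, which the vascular wall matrix list also holds), with 0 higher, and 4 of 12 lay above 0 at P2.5. Of 12 endothelial markers, 0 were called at either stage, with medians of 0.18 and 0.088. Of the epicardial markers that passed (P2.5: 8, E15.5: 9), the keratin Krt18 was called higher at P2.5 (1.13) and Krt19 lower at E15.5 (-0.61). Of 9 macrophage and leukocyte markers that passed, Cd68 (-0.92) and C1qc (-0.60) were called lower at P2.5 and 0 at E15.5. All 9 lay below 0 at P2.5, with a median of -0.26. At E15.5, 6 lay below 0 and 3 above, with a median of -0.050. Among neural crest and outflow tract genes, Sema3c (-0.59) was called lower of 11 at P2.5, and Foxc2 (-0.60) lower of 13 at E15.5.

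In the list of other smooth muscle contractile genes, 20 of the 32 that passed at E15.5 lay above 0 and 12 below. Susd5 and Itga8, named after their values were seen, also had less transcript in the E15.5 dKO library. Susd5 had 0.702 FPKM in dHET and 0.104 in dKO, below the filter, and the integrin Itga8 had 10.2 and 6.58. With the pseudocount of 1 the log2 change of Itga8 was -0.56, short of the 1.5-fold line, and the authors' deposited value is -0.63. After rescaling to a sum of 1000000, which also lessens the weight of the pseudocount, it was past the line (-0.62). The authors' deposited table calls both significant between these libraries, with q-values of 1.9e-06 and 0.0305.

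The balance between Kcnmb1 and Myh11, both used as smooth muscle markers, differed most between genotypes at E15.5 among the 6 pairs of genes whose ratio was computed. Kcnmb1 stood at 0.323 of Myh11 in dHET and at 8.11 times Myh11 in dKO, against 0.0921 and 0.381 at P2.5. At E15.5 Kcnmb1 had the highest ratio of dKO to dHET of the 10 genes (3.31) and Myh11 the lowest (0.132). The rank of this pair follows from that, and Myh11 had 0.915 FPKM in the E15.5 dKO library.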
